A study of Mus musculus with 39 samples.

Results

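In mature cerebellar granule cells at postnatal day 21 (P21), 275 of 5840 regions marked by H3K4me3 (4.71%) also carried H3K27me3. H3K4me3 is the histone mark of active and poised promoters, and H3K27me3 is the mark placed by Polycomb repressive complex 2. A region of a mark was a stretch covered by peaks of at least 2 libraries of that mark and stage, and an H3K4me3 region was taken when it shared at least 1 base with H3K27me3. The regions were thus chosen by the P21 peak lists of both marks, and their P21 marks are given as a description.

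All samples were chromatin from the cerebellum of C57Bl/6J mice, with no genotype or treatment difference. At P7, granule cell progenitors were separated on a Percoll gradient. At P12 and P21, granule cell nuclei were sorted for NeuN and NeuroD1, so nuclei low in either protein were not sampled, and chromatin was sonicated for longer. Every comparison with P7 thus also compares isolation methods, and the effect of this cannot be told apart from that of age. H3K4me3 was measured in 3, 2 and 2 libraries and H3K27me3 in 5, 4 and 5 libraries at P7, P12 and P21. The labels do not say whether replicates came from separate animals, so p-values measure the spread between these libraries, which may be technical. Total counts over all transcription start sites (TSS) lay between 264093 and 5653193 per library. H3K27me3 replicates 1 and 2 of each stage shared an input library and gave 6440 and 6442 peaks at P21, against 38421 to 50222 in replicates 3, 4 and 5.

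Promoters that carry both marks are called bivalent. In stem cells such promoters often belong to developmental regulators that are held at low expression, and during differentiation most are known to resolve to a single mark. Granule cells arise from dividing progenitors in the external granule layer, leave the cell cycle, migrate inward and become the small excitatory neurons that receive mossy fibre input. In chromatin from many cells, both marks on the same nucleosomes, on the 2 alleles or in different cells cannot be told apart.

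The promoters of 4 genes at the regions are shown as examples of the genes described below. Clstn2 had P21 H3K27me3 peaks in all 5 lists, Ppm1e had little H3K27me3 at P7, Syt2 lost most of its P7 H3K27me3, and Zrsr1 is an imprinted gene with fewer CpG dinucleotides than the other three. Sequences are from RefSeq, build GRCm38.p6 (mm10), and run 5′ to 3′ on the gene's strand. They span 250 bases before to 50 bases after the listed promoter start nearest to the gene start. That is the gene start itself at Ppm1e and Zrsr1, but another start at Clstn2 (gene start at 98033373) and Syt2 (gene start at 134646534). Capitals mark each CpG:
Clstn2 (chr9:98033118-98033417, minus strand): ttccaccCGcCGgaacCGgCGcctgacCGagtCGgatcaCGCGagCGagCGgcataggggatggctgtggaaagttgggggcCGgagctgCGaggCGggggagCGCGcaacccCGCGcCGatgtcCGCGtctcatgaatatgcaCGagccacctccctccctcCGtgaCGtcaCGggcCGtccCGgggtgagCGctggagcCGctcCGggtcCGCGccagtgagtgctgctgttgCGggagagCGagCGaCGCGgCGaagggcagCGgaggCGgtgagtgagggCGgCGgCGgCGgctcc
Ppm1e (chr11:87358945-87359244, minus strand): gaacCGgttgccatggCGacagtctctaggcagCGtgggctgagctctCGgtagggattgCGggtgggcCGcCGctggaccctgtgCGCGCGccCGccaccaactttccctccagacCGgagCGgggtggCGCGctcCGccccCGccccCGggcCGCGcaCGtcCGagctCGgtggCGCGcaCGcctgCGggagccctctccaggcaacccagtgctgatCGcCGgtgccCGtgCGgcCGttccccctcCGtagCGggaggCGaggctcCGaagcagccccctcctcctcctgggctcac
Syt2 (chr1:134646362-134646661, plus strand): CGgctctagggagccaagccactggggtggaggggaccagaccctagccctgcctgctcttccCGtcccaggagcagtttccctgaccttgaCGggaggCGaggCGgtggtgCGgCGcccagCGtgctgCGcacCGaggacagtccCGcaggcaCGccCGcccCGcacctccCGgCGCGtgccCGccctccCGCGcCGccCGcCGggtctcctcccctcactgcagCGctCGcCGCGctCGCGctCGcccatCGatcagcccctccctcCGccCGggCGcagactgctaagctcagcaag
Zrsr1 (chr11:22971755-22972054, plus strand): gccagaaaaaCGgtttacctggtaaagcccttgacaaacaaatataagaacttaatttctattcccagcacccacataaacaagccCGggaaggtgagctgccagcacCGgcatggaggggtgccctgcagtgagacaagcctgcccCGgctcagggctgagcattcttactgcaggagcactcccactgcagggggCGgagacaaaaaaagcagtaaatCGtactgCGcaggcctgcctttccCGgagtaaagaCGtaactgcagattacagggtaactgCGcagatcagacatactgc

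The Clstn2 promoter held 43 CpG, that of Ppm1e 36, that of Syt2 34 and that of Zrsr1 10. The Clstn2 sequence lies wholly inside its region. Those of Ppm1e, Syt2 and Zrsr1 lie mostly outside theirs, so their CpG counts may not describe the regions. Among the promoters of gene starts at the regions the median was 24.5 CpG, against 7 over all 32851 promoters of that length in the table. Measured over whole regions, those with both marks held a median of 85.9 CpG per kb and the other 5565 P21 H3K4me3 regions 70.1, with a GC content of 66.0% and 61.2%. The ratio of observed to expected CpG was closer, at 0.787 and 0.765. The regions had a median width of 1001 bases against 1256 for the others, with a lower quartile of 1001 bases in both sets. A width of 1001 bases thus recurred in both, and the part of peak calling in it was not tested. A gene start or curated transcript start lay within 1000 bases of 259 regions (94.2%), whereas 11 lay in exons and 5 between genes. Regions in exons included those of Pitx3, Pgr, Pdgfb, Zfp503 and Slitrk5.

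H3K27me3 covered the whole H3K4me3 region at 171 of 275, reached in from one end at 96, covered both ends at 2 and lay inside at 6. The stretch carrying both marks had a median of 1001 bases and ran from 9 to 3709. At the edge of the definition were the regions of Dyrk2 with 9 shared bases, Hey2 with 13 and Aff1 with 33. Just outside it were the regions at Lbh, 6 bases from H3K27me3, Plec, 16 bases away, and Enox1, 36 bases away. In all, 13 regions shared under 200 bases, and 8 of the others lay within 200 bases of H3K27me3.

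The P21 H3K27me3 libraries did not contribute equally. Replicates 3, 4 and 5 had peaks at 270, 236 and 248 of the regions, where 5.41%, 4.86% and 4.5% of all P21 H3K4me3 regions had one. Replicates 1 and 2 had peaks at 21 and 36, against 0.377% and 0.616% of all. Lists from replicates 3 to 5 alone gave the same 275 regions, so the counts of replicates 1 and 2 at P21 did not decide which regions were taken. In those 2 libraries the median H3K27me3 count at the 246 gene starts in the table was 21.1 and 29.9 CPM (counts scaled to a common library size with TMM factors), against 5.26 and 6.89 CPM at the start sites of the other P21 H3K4me3 regions. Of the 246, 148 (60.2%) in replicate 1 and 161 (65.4%) in replicate 2 lay above the upper decile of those other sites, although few had a called peak. Many of these gene starts thus had more H3K27me3 than other H3K4me3 sites in libraries whose peaks left the set unchanged. The median over all TSS was 18.4 CPM in each of the 2 libraries, however. The lower quartiles at the 246 gene starts, 10.5 and 13.8 CPM, lay below it. These levels are a description, since the P21 mark chose the sites.

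Input libraries also had peaks at many H3K4me3 regions. P21 input replicates 3 and 4 had peaks at 163 and 218 of the 275 regions (59.3% and 79.3%), and at 45.3% and 66.9% of all P21 H3K4me3 regions. The input of replicate 5 had none at the 275 and peaks at 0.0856% of all, whereas replicate 5 itself had peaks at 248. The shared input of replicates 1 and 2 had none either, with 0.0171% of all. When peaks that overlapped any input peak were left out, 22 regions had both marks, and when only peaks that overlapped the library's own input were left out, 116 did. The part of input signal in the peaks of replicates 3 and 4 was not tested.

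**Figure D1:**
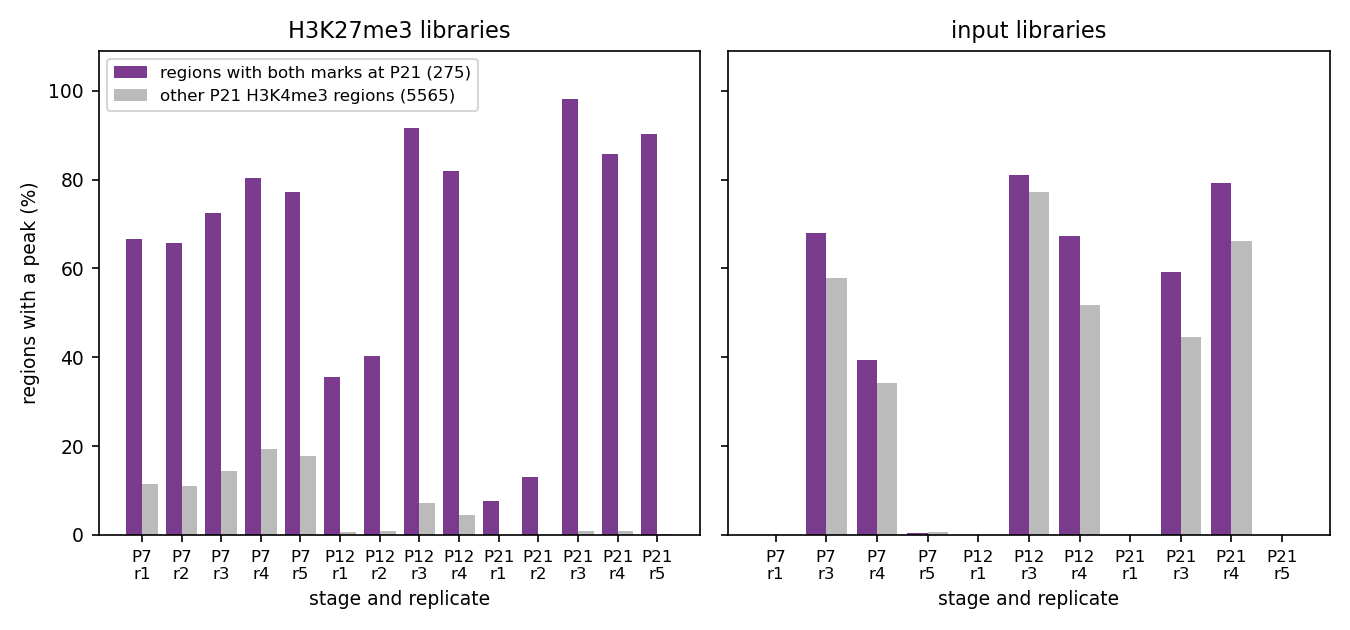
Share of regions (%) with a peak in each H3K27me3 library (left) and each input library (right), for the 275 regions with both marks at P21 and the 5565 other P21 H3K4me3 regions. P21 replicates 3, 4 and 5 had peaks at 98.2%, 85.8% and 90.2% of the 275 regions, and replicates 1 and 2 at 7.64% and 13.1%; inputs of replicates 3 and 4 had peaks at both kinds of region, that of P21 replicate 5 at none of the 275.

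The level of both marks at these gene starts lay between those of singly marked sites in the H3K27me3 libraries and beside those of other H3K4me3 sites in the H3K4me3 libraries. At P21 the median H3K4me3 count was 66.7 and 71.7 CPM in the 2 libraries, and 67.7 and 75.0 CPM at other H3K4me3 sites. The median H3K27me3 count in replicates 1 to 5 was 21.1, 29.9, 57.7, 43.1 and 44.8 CPM. At the 4260 gene starts with P21 H3K27me3 and no P21 H3K4me3 it was 57.9, 57.4, 84.4, 58.1 and 82.9 CPM. In every P21 library the median at the bivalent sites was below that at sites with H3K27me3 alone.

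**Figure D2:**
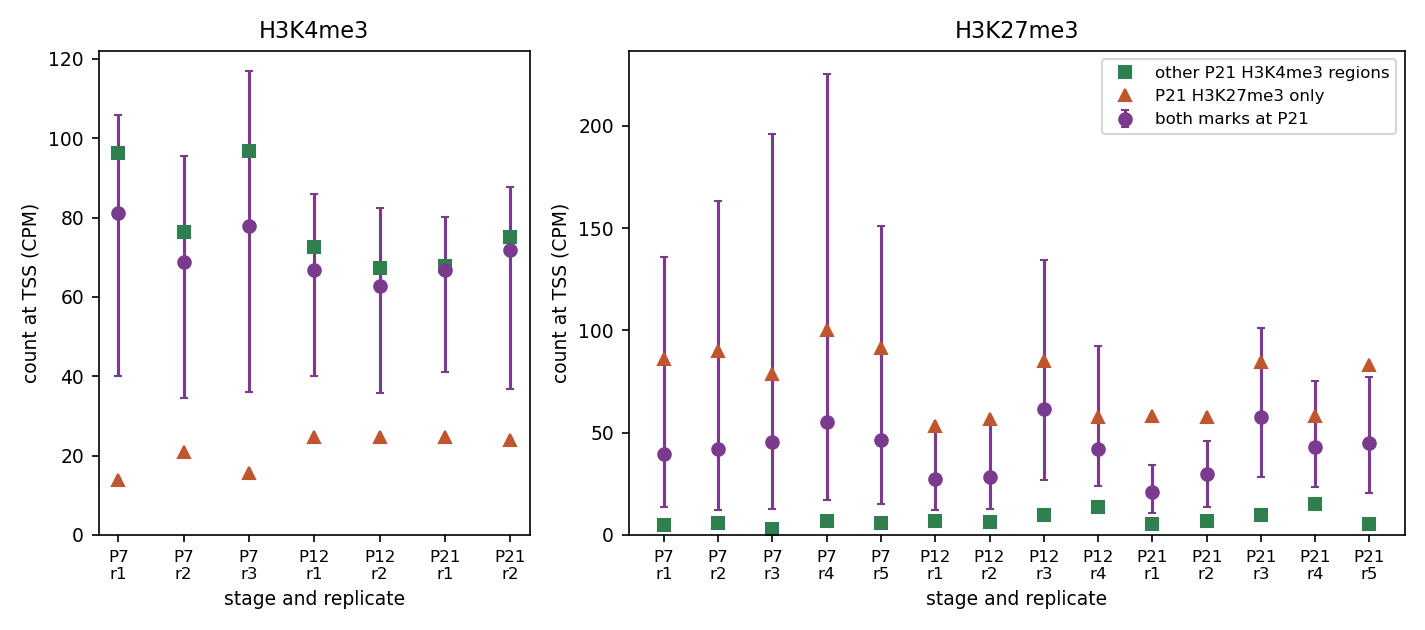
Median count at gene starts (CPM, y axis) in each library of H3K4me3 (left) and H3K27me3 (right), for gene starts of the 275 regions (circles, bars from the lower to the upper quartile, 246 gene starts), of other P21 H3K4me3 regions (squares, 5892) and with P21 H3K27me3 only (triangles, 4262 on the left and 4260 on the right). In the P21 H3K27me3 libraries the circles lie between 21.1 and 57.7 CPM, above the squares and below the triangles.

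The genes at these regions included many developmental regulators. Of 7562 genes with a start at a P21 H3K4me3 region, 325 (4.3%) were at a region with both marks. Of 85 genes in 5 lists of transcription factors (homeobox outside the Hox clusters, forkhead, Sox with T-box and Gata, bHLH, and zinc finger factors) it was 19, or 22.4%. No Hox gene had a P21 H3K4me3 region. Synaptic proteins gave 1 of 55 genes (Syt2), cell cycle genes 2 of 57 (Ccnd2 and Cdca7l) and Polycomb and Trithorax proteins 1 of 40 (Pcgf5, a subunit of a variant Polycomb repressive complex 1). These shares are descriptions, since the P21 marks chose the regions.

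The homeobox list gave 4 of 19, among them Tlx3, which specifies glutamatergic neurons in the spinal cord, Uncx and the related zinc finger homeobox gene Tshz3. The bHLH list gave 6 of 17, among them Id4 and Hey2, which restrain other bHLH factors or act below Notch, and Ebf1, Mycl and Npas2. Sox, T-box and Gata factors gave 2 of 4, namely Sox11, a factor of immature neurons, and Eomes, a factor of unipolar brush cells. Zinc finger and nuclear receptor genes gave Egr4, Klf12, Nr2f2, Nr4a3 and Zbtb7c, 5 of 32, and forkhead factors gave Foxo6 and Foxp4, 2 of 13.

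Signalling genes were also frequent. Hedgehog and Notch components gave 4 of 14 (the Notch ligands Dll4 and Jag1, the Notch target Hey2 and the hedgehog co-receptor Cdon), BMP and TGF-beta components 5 of 21 and Wnt components 2 of 9 (the receptors Fzd1 and Fzd8). The list of growth factor ligands and receptors gave 8 of 28, among them Bdnf, Fgf5, Nrg1, Pdgfa and Kitl. It also held Spry4, which encodes neither a ligand nor a receptor. Axon guidance genes gave 10 of 47, including the ephrin Efna5, the receptors Epha5, Ephb3 and Ephb6, Plxna4, Plxnc1 and Ntn1, which encodes netrin 1.

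The list of ion channels gave 10 of 60 names, including Kcnd3os, an opposite-strand transcript of Kcnd3 matched by name and not a channel. The others were Hcn4, a pacemaker channel, and the potassium channels Kcna3, Kcnc4, Kcnd3, Kcnj2, Kcnk9, Kcnma1, Kcnn2 and Kcnq5. Transmitter receptors gave 4 of 28: the NMDA receptor subunits Grin2b and Grin3a, the muscarinic receptor Chrm3 and the adrenergic receptor Adra2a. Extracellular matrix genes gave 6 of 24, immediate early genes 4 of 22 (Atf3, Bdnf, Egr4 and Nr4a3) and cadherins 3 of 16. In a list of imprinted genes chosen after the regions were seen, 3 of 14 genes were at 2 regions: Kcnk9, and Zrsr1 with Commd1, the host gene in whose intron Zrsr1 lies.

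Few markers of other cerebellar cells had P21 H3K4me3, without which a gene could not be at the regions. Of 12 granule cell markers, 8 had P21 H3K4me3 alone, 1 had H3K27me3 alone and none had both. Of 7 Purkinje cell, 8 astrocyte, 6 microglia and 6 vessel markers none had P21 H3K4me3, and of 8 interneuron and 8 oligodendrocyte markers 1 each had it, without H3K27me3. Eomes was the 1 marker with both marks, of 6 for unipolar brush cells and cerebellar nuclei. The part of other cell types in its signal was not tested.

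By all deposited peaks, most of the regions carried both marks before P21, which did not hold once peaks that overlapped any input peak were left out. By the peaks of P7 libraries, which the choice did not use, 202 of 275 (73.5%) had both marks in progenitors, against 18.8% of all P21 H3K4me3 regions and 16.1% of the others. A further 62 had H3K4me3 alone (78.9% of all), 10 had H3K27me3 alone (1.58% of all), and 1, in an exon of Slitrk5, had neither (0.736% of all). At P12, 151 regions (54.9%) had both marks, against 6.23% of all P21 H3K4me3 regions and 3.83% of the others. H3K4me3 alone was found at 42 (77.7% of all), H3K27me3 alone at 74 (1.76% of all) and neither at 8 (14.3% of all). Without peaks that overlapped any input peak, 7 of 22 regions (31.8%) had both marks at P7 and 4 (18.2%) at P12. Without peaks that overlapped the library's own input, 91 of 116 (78.4%) had both at P7 and 40 (34.5%) at P12. P7 input replicates 3 and 4 had peaks at 68% and 39.3% of the 275 regions, against 58.3% and 34.5% of all P21 H3K4me3 regions.

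Both marks at all 3 stages were found at 125 regions (45.5%), and 5.19% of all P21 H3K4me3 regions had both at P7 and P12. Another 60 had both at P7 and H3K27me3 alone at P12 (1.4% of all), and 22 had H3K4me3 alone at P7 and both at P12 (0.531% of all). The P12 count rested on H3K27me3 replicates 3 and 4, and it was 84 without either of them. The inputs of these 2 libraries had peaks at 81.1% and 67.3% of the 275 regions, against 77.3% and 52.5% of all, and the part of input signal in these states was not tested. It also rested on few H3K4me3 libraries, since P12 H3K4me3 peaks in replicate 2 were found at 212 of the 275 regions and in replicate 1 at 237.

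**Figure D3:**
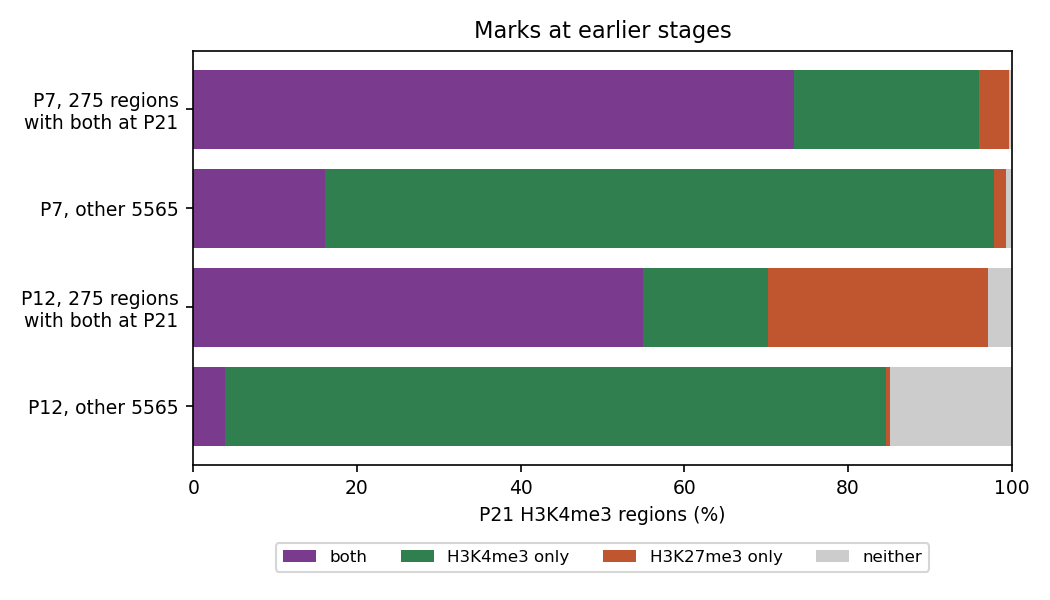
Share (%) of the 275 regions with both marks at P21 and of the 5565 other P21 H3K4me3 regions by the marks they carried at P7 and at P12. Both marks were present at 73.5% of the 275 regions at P7 and 54.9% at P12, against 16.1% and 3.83% of the others.

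Clstn2, which encodes the synaptic adhesion protein calsyntenin 2, showed how a region with both marks at every stage looked. Its region (chr9:98032057-98033670) held the gene start and was covered over all 1614 bases by H3K27me3. H3K4me3 at its gene start was 92.4, 76.4 and 99.8 CPM at P7, 89.7 and 67.3 at P12, then 82.1 and 83.4 at P21. H3K27me3 was 140, 213, 173, 188 and 145 CPM at P7, 151, 144, 311 and 232 at P12, then 42.1, 66.6, 134, 89.3 and 137 at P21. The P7 and P12 libraries overlapped in both marks, and neither differed past the threshold (adjusted p = 0.574 for H3K4me3 and 0.362 for H3K27me3).

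Peaks in all 5 P21 lists did not always go with a high count at the gene start. The other genes named from regions in all 5 lists were Icam5, Mast4, Nr6a1, Stxbp6, Tshz3, Ttc7 and Xylt1. At P21 Mast4 had 52.6, 82.7, 261, 170 and 190 CPM of H3K27me3. Icam5, an adhesion molecule of telencephalic neurons, had 0, 4.59, 7.76, 6.46 and 6.79 CPM. The gene start of Icam5 lay inside its region (chr9:21031154-21032451), so the peak lists and the TSS counts went apart there. Its H3K27me3 counts had been 120, 108, 87.8, 92.7 and 71.9 CPM at P7.

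P12 against P7 is the contrast that sets no P21 level against another stage, although P21 libraries shared the fit and so entered its filter and spread. The test was edgeR's quasi-likelihood test over all TSS, with Benjamini-Hochberg adjustment and a threshold of 0.05. For H3K27me3, 220 of the 246 gene starts passed the filter on low counts. Of these, 150 changed, 51 higher and 99 lower at P12, where 36.4% of all 18089 TSS were called, 14.4% higher and 22% lower. The median log2 difference was -0.56 at the bivalent gene starts and 0.18 over all TSS. Gene starts with P21 H3K27me3 alone had library medians between 78.7 and 100 CPM at P7 and between 53.4 and 85.1 CPM at P12. Without 1 P21 library at a time, between 145 and 153 gene starts were called. With a scaling that follows abundance in each library the counts were 63 higher and 77 lower, and with plain library totals 100 higher and 62 lower, where the median over all TSS moved to 1.14.

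The direction went with the mark at P7, a split that itself uses P7 libraries and is a description. Of the gene starts at regions with both marks at P7, 18 were called higher and 91 lower at P12 of 161 tested. Of those with H3K4me3 alone at P7, 33 were called higher and 0 lower of 50 tested. Of those with H3K27me3 alone, 0 were called higher and 8 lower of 9. The counts of 0 were also 0 at an unadjusted p under 0.05 in edgeR and at an adjusted p under 0.05 in DESeq2. Since the split and the test share the P7 libraries, the split largely set these counts, and their repeat in other settings adds no support.

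Gene starts at which H3K27me3 rose included Pard3, Dapk1, Ntn1, Hunk and Ppm1e. Ppm1e encodes a protein phosphatase that acts on PAK kinases, and its gene start lay inside its region (chr11:87358024-87359024). Its H3K27me3 counts were 27.1, 24, 36.3, 22.1 and 21 CPM at P7, 110, 113, 346 and 250 at P12, then 73.7, 96.5, 284, 192 and 189 at P21. All P12 libraries lay above all P7 libraries, with a log2 difference of 3.03 ± 0.29 (SE, adjusted p = 9.23e-13). Its H3K4me3 counts were 163, 162 and 221 CPM at P7, 74.4 and 62.8 at P12, then 55.4 and 78.3 at P21. These did not overlap either, and fell by 1.40 on the log2 scale (SE 0.27, adjusted p = 3.12e-05), a call lost without P12 replicate 2 (adjusted p = 0.0915).

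Hunk, a kinase gene related to the AMPK family, had the same pattern. Its H3K27me3 counts were 8.45, 3.0, 9.08, 11.9 and 10.5 CPM at P7, 25.8, 46.8, 150 and 104 at P12, then 21.1, 62.0, 170, 141 and 89.7 at P21. The P7 and P12 libraries did not overlap (log2 difference 3.27 ± 0.35, adjusted p = 3.01e-11). H3K4me3 was 202, 206 and 280 CPM at P7 and 111 and 65.0 CPM at P12, and fell by 1.37 on the log2 scale (adjusted p = 1.84e-05), a call also lost without P12 replicate 2 (adjusted p = 0.163). Pard3, a cell polarity gene, had the largest H3K27me3 rise of those named, from between 6.76 and 20.4 CPM at P7 to between 70.6 and 393 CPM at P12 (log2 difference 3.88 ± 0.32, adjusted p = 1.2e-14). Ntn1 went from between 3.0 and 31.5 CPM to between 55.1 and 295 CPM, and stood at 36.9 to 264 CPM at P21. By their peaks, the regions of Pard3 and Ntn1 had both marks at P7, whereas those of Ppm1e and Hunk had H3K4me3 alone. The P7 medians over all TSS, between 9.08 and 16.5 CPM, lay within the P7 ranges of Pard3 and Ntn1. Peaks and counts thus went apart at P7, and the gene start of Pard3 lay outside its region.

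Sox11 and Efna5 had H3K4me3 alone at P7 and both marks at P12. Sox11 had 15.2, 9.0, 0, 8.51 and 2.99 CPM of H3K27me3 at P7, 12, 17.8, 31.7 and 30.0 at P12, then 23.7, 25.3, 67.0, 46.3 and 44.8 at P21. The P7 and P12 ranges overlapped in 1 library of each (log2 difference 1.65 ± 0.41, adjusted p = 0.00111), and at P21 every library lay above every P7 library. H3K4me3 at Sox11 went from 124, 107 and 132 CPM to 72.5 and 44.8 CPM (adjusted p = 0.00715), which was not past the threshold without P12 replicate 2 (adjusted p = 0.299), with abundance-dependent scaling (0.177) or with a replicate block (0.0731). The H3K27me3 rise at Sox11 was lost in replicates 1 and 2 alone (log2 difference 0.19, adjusted p = 0.804). The H3K27me3 rise at Efna5 (log2 difference 1.14 ± 0.37, adjusted p = 0.0126) was no longer past the threshold without P12 replicate 3 and had the opposite sign in replicates 1 and 2 alone.

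Gene starts at which H3K27me3 fell included Dll4, Icam5, Adamts2, Ppp1r1b and Ptpn5. Dll4 encodes a Notch ligand. Its H3K27me3 counts were 394, 444, 421, 375 and 350 CPM at P7, 22.4, 33.9, 35.6 and 26.6 at P12, then 26.3, 27.6, 37.8, 19.4 and 36.7 at P21. The P7 libraries stood apart from all later ones, and the mark fell by 3.72 on the log2 scale to P12 (SE 0.27, adjusted p = 1.84e-16). H3K4me3 at Dll4 was 12, 5.73 and 3.93 CPM at P7 and 19.1 and 20.2 at P12, which did not pass the threshold (adjusted p = 0.117). Each count was below the median over all TSS (16.6, 24.8 and 17.3 CPM at P7, 28.6 and 29.1 at P12). The gene start lay inside the region, which had both marks at P7 and P12 by its peaks, so peaks and counts went apart.

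The other Notch ligand, Jag1, differed less. Its H3K27me3 counts ran from 141 to 239 CPM at P7, from 96.9 to 221 at P12 and from 55.3 to 286 at P21, and P12 against P7 was not past the threshold (adjusted p = 0.244). H3K27me3 also fell at Adra2a (log2 difference -2.33, adjusted p = 5.43e-10), Hcn4 (-2.28, adjusted p = 9.6e-08), Eomes (-1.91, adjusted p = 9.93e-09) and Tshz3 (-1.66, adjusted p = 0.000142), the last a call lost with library totals (adjusted p = 0.0615). Tlx3 fell by 1.18 on the log2 scale (adjusted p = 3.33e-05), from between 352 and 657 CPM to between 147 and 317 CPM, with an estimate of 0.23 under abundance-dependent scaling and no call with library totals (adjusted p = 0.219).

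For H3K4me3, 219 gene starts were tested in P12 against P7 and 54 were called, 12 higher and 42 lower, where 14.5% of all 20748 TSS were called, 5.34% higher and 9.21% lower. The median log2 difference was -0.30 at the bivalent gene starts and 0.16 over all TSS. With abundance-dependent scaling 17 were called higher and 6 lower, and with library totals 16 and 24, so the balance of rises and falls rests on the scaling. Without P12 replicate 2 the count was 3 and without P12 replicate 1 it was 11. Without P21 replicate 1, 4 were called higher and 44 lower. Among the genes shown, 16 H3K4me3 differences passed the threshold, of which the falls at Basp1 and Mdga1 passed it under every alternative and the other 14 lost it under at least 1.

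Basp1, a membrane protein gene of growing axons, went from 88.4, 80.3 and 103 CPM of H3K4me3 at P7 to 21 and 11.2 at P12 and stood at 12.3 and 23.0 at P21 (log2 difference -2.47 ± 0.40, adjusted p = 5.93e-07). Mdga1, a cell adhesion gene that binds neuroligins, went from 265, 256 and 369 CPM to 84.0 and 78.5 CPM and stood at 75.9 and 82.5 at P21 (log2 difference -1.87 ± 0.26, adjusted p = 1.24e-09). Neither gene's P7 libraries overlapped its later ones. H3K27me3 rose at both, by 2.69 and 2.66 on the log2 scale. Both gene starts lay outside their regions, and that of Basp1 (chr15:25412120-25413120) shared 340 bases with H3K27me3, in 2 lists. The P21 H3K4me3 counts at Basp1 were below the medians over all TSS (30.8 and 25.3 CPM), so they may not measure its region.

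H3K4me3 rose at Tesc, Syt2, Ppp1r1b, Zrsr1 and Wiz, and none of these calls held without P12 replicate 2. The adjusted p was then 0.130, 0.164, 0.126, 0.0772 and 0.234. The rise at Zrsr1 was also lost without P12 replicate 1 (adjusted p = 0.184), and that at Wiz under 6 further alternatives. Syt2 encodes synaptotagmin 2, a calcium sensor of fast transmitter release. Its H3K4me3 counts were 30.6, 26.8 and 37.7 CPM at P7, 82.1 and 117 at P12, then 69.8 and 96.5 at P21 (log2 difference of P12 from P7 1.62 ± 0.31, adjusted p = 2.77e-05). Its H3K27me3 counts were 928, 1110, 1057, 1141 and 930 CPM at P7, 115, 150, 321 and 209 at P12, then 23.7, 45.9, 59.2, 53.8 and 76.1 at P21. The 3 stages did not overlap in H3K27me3, and what was left at P21 still gave peaks in 3 lists. The median of the other P21 H3K4me3 sites was at most 15.1 CPM in any P21 library.

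Tesc, which encodes the calcium-binding protein tescalcin, had H3K27me3 alone at P7 by its peaks and both marks later. H3K4me3 went from 25.3, 36.3 and 33.0 CPM to 82.1 and 128 at P12 (log2 difference 1.8 ± 0.30, adjusted p = 1.25e-06), and H3K27me3 from between 880 and 1608 CPM to between 99.8 and 315 (log2 difference -2.79). At P21 H3K27me3 stood at 0, 9.19, 43.7, 40.9 and 54.3 CPM. Ppp1r1b, the gene of the phosphatase inhibitor DARPP-32, went from between 663 and 903 CPM of H3K27me3 at P7 to between 72.3 and 122 at P12 and between 7.90 and 24.3 at P21. Its region shared 159 bases with H3K27me3, in 2 lists, and P21 input replicates 3 and 4 had peaks there. The medians over all TSS in the P21 libraries, between 16.3 and 20.4 CPM, lay within the range of its P21 counts.

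**Figure D4:**
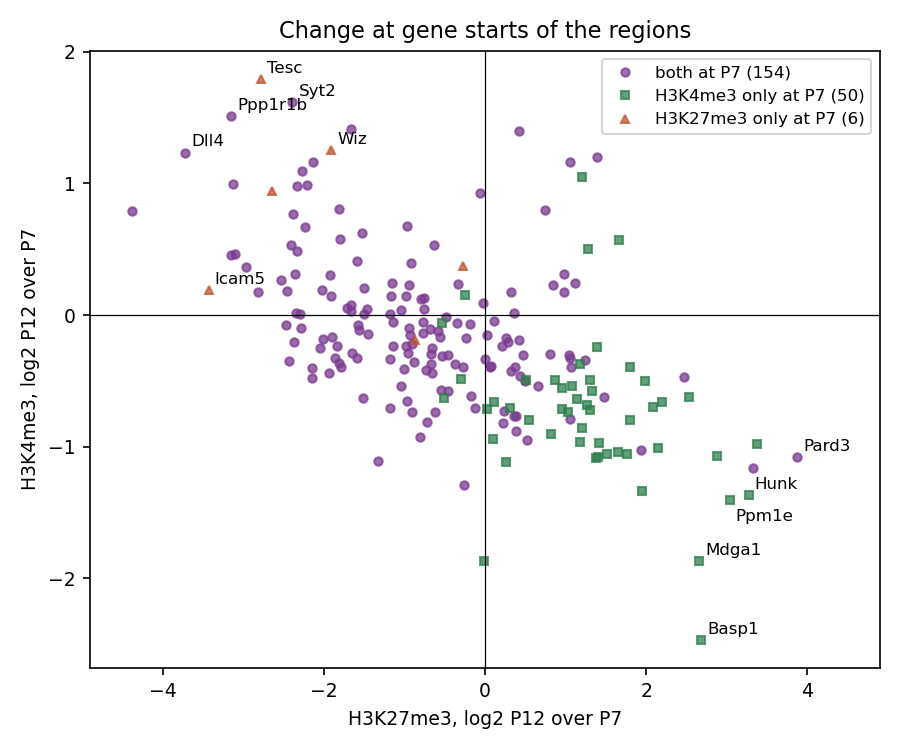
Log2 difference of P12 from P7 at 210 gene starts tested for both marks, H3K27me3 on the x axis and H3K4me3 on the y axis, by the marks of the region at P7. Gene starts with H3K4me3 alone at P7 (50, squares) lie mostly to the right, and Basp1 and Mdga1 are lowest; Tesc, Syt2 and Ppp1r1b lie at the upper left.

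P21 was compared with the earlier stages in H3K27me3 replicates 1 and 2, whose peaks left the set of regions unchanged. This comparison was added after the data were seen. The sites were still chosen for H3K27me3 at P21 by the other libraries of that stage. The choice and the comparison thus share the P21 mark, and P21 calls at these sites are given as a description. Their p-values cannot test a gain of the mark by P21, since sites without it at P21 were left out. Of 192 gene starts tested, 29 were higher and 113 lower at P21 than at P7, and over all 14659 TSS the calls were 16.9% higher and 24.8% lower. The median log2 difference was -1.28 at the bivalent gene starts and 0.27 over all TSS. With library totals 67 were higher and 70 lower, with a median over all TSS of 1.60, and with abundance-dependent scaling 19 and 101. Relative to all TSS, H3K27me3 counts at most of the tested gene starts were thus lower at P21 than in progenitors, although a P21 peak was called in other libraries. Gene starts with P21 H3K27me3 alone also fell, from medians of 86.2 and 90.0 CPM at P7 to 57.9 and 57.4 at P21. At the bivalent gene starts the medians were 39.7 and 42.0, then 21.1 and 29.9 CPM (replicates 1 and 2, scaled with all libraries). The fall was thus not particular to the bivalent gene starts.

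Against P12, 5 gene starts were higher and 38 lower at P21 in the same 2 libraries, and over all TSS the calls were 0.566% higher and 5.18% lower. The count of 43 fell to 19 without P21 replicate 1, to 21 without P12 replicate 2 and to 28 without P12 replicate 1. The count of higher gene starts was 0 without P12 replicate 2, 1 with abundance-dependent scaling and 2 without either P21 replicate, so each of the 5 rises was lost in at least 1 alternative. The 5 that were higher were Psat1, an enzyme of serine synthesis, Egfr, a growth factor receptor, Pag1, an adaptor protein, and the potassium channels Kcnma1 and Kcnq5. Psat1 had 7.86 and 0 CPM at P7, 33.7 and 16.5 at P12, then 73.1 and 92.2 at P21 (log2 difference from P12 1.73 ± 0.37, adjusted p = 0.0048). Egfr had 27.5 and 24, 27.8 and 18.3, then 53.4 and 71.7 CPM (1.45 ± 0.36, adjusted p = 0.0143). In both genes each P21 library lay above every earlier one. These rises are descriptions too, since the sites were chosen for H3K27me3 at P21.

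Kcnma1, which encodes the large-conductance calcium-activated potassium channel, was called higher at both steps, each of which was lost in an alternative. Over all libraries its H3K27me3 counts were 28.7, 33.0, 18.2, 27.2 and 41.9 CPM at P7, 53.4, 61.4, 91.1 and 46.3 at P12, then 124, 110, 120, 50.6 and 125 at P21. P12 lay above P7 without overlap (log2 difference 1.06 ± 0.29, adjusted p = 0.00306), a call lost without P12 replicate 3. P21 lay above P12 in replicates 1 and 2 (log2 difference 0.96 ± 0.26, adjusted p = 0.0243), a call lost without P12 replicate 2. The rise to P21 is a description, since its site was chosen for H3K27me3 at P21. P21 replicate 4 was the low library of its stage and lay within the P12 range.

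Grin2b and Grin3a encode NMDA receptor subunits. Grin2b had 32, 19.1 and 28.3 CPM of H3K4me3 at P7 and 26.7 and 28.6 at P21, and its H3K27me3 ran from 9.0 to 45.9 CPM at P7 and from 2.63 to 23.0 at P21. Its gene start lay outside the region itself. Grin3a had between 59.5 and 95.4 CPM of H3K4me3 in all libraries and between 26.3 and 63.5 CPM of H3K27me3 at P21. P12 and P7 libraries overlapped for H3K27me3 at both genes. The Grin2b difference was not past the threshold (adjusted p = 0.0713), and that of Grin3a was (log2 difference -0.77, adjusted p = 0.0351) but was lost under each other scaling tried.

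At the imprinted gene Zrsr1, which encodes a splicing factor related protein expressed from the paternal allele, both marks were found at all 3 stages over a region of 1448 bases (chr11:22972000-22973447). H3K4me3 rose from 24.1, 34.4 and 25.9 CPM at P7 to 84.0 and 58.3 at P12 (log2 difference 1.41 ± 0.34, adjusted p = 0.00158), and was 53.3 and 60.9 at P21. H3K27me3 fell from between 99.9 and 213 CPM to between 37.9 and 69.3 (adjusted p = 4.1e-07), and was 71.1, 41.4, 64.0, 39.8 and 54.3 CPM at P21. Its P21 H3K27me3 did not overlap with that of P7. Whether the marks lie on different alleles was not tested.

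5 of the 40 P21 H3K4me3 regions on the X chromosome had both marks (12.5%, against 4.71% over all chromosomes). They were at Klhl15, Ogt, Nhsl2, Magee1 and Iqsec2, all with both marks at P7. In female mammals the inactive X chromosome carries H3K27me3, and the labels do not give the sex of the animals. All 5 had P21 H3K27me3 peaks in replicates 3 and 5, none in replicate 4, and no peak in the inputs of replicates 3 and 4.

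The counts showed the same library apart. Ogt, which encodes the enzyme that adds O-GlcNAc to proteins, had 31.6, 43.6, 58.2, 6.46 and 42.1 CPM at P21. Magee1 had 57.9, 66.6, 84.4, 10.8 and 70.7 CPM. Replicate 4 was lowest at both, and also at Nhsl2 and Iqsec2. Over 34 X-linked gene starts at P21 H3K4me3 regions the median in that library was 8.61 CPM, against 15.1 CPM at 6104 autosomal ones. In each of the 13 other H3K27me3 libraries the X-linked median was the higher one, between 10.5 and 43.0 CPM against 3.03 to 13.7 CPM. The part of sex in this difference was not tested.

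**Figure D5:**
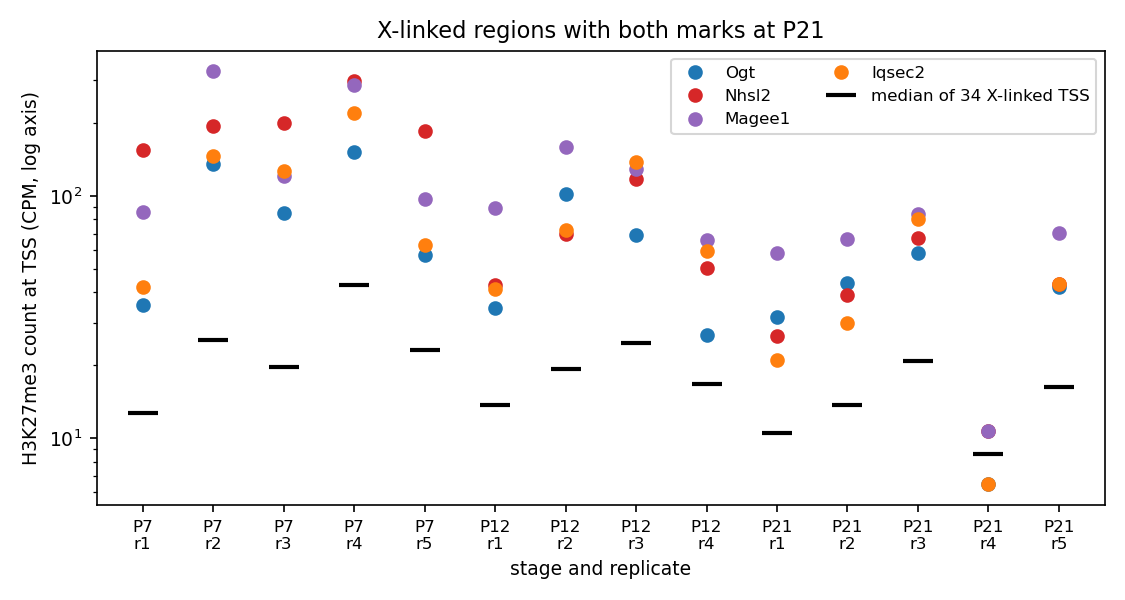
H3K27me3 counts (CPM, log axis) at the gene starts of 4 X-linked regions with both marks at P21 in each library, with the median of 34 X-linked gene starts as a dash. In P21 replicate 4 the 4 genes lie between 6.46 and 10.8 CPM, below all other libraries.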

How the data were processed

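H3K4me3 and H3K27me3 ChIP-seq and input libraries were read as 75-base single-end reads on a NextSeq 500, per the labels' protocols, and made with a TruSeq or a NEBNext kit, not stated per library. The authors deposited raw read counts per gene TSS for the 21 ChIP libraries and peak lists for all 39 libraries. The deposited peak lists give positions and a whole-number score, used here only in 1 alternative. HOMER 4.11, ChIPseeker 1.30.3 and mm10 are named in the submitters' processing notes. The sources used here do not say how reads were aligned or counted, or over which TSS window.

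Overlaps were computed with bedtools 2.31.1 under Python 3.11.15. Gene starts, transcript starts and exons are those of RefSeq GRCm38.p6, the assembly of mm10, to which 23985 of 24045 gene IDs matched. A gene start was assigned to a region within 1000 bases. Of 286 gene starts so assigned, 187 lay inside a region, and counts at the others may not measure the region. Counts were compared in R with edgeR 4.0.16 (filterByExpr, TMM scaling, robust quasi-likelihood test, two-sided, Benjamini-Hochberg over all TSS tested), with stage in the H3K4me3 fit and stage with the input arrangement in the H3K27me3 fit. DESeq2 1.42.0 was a second tool, and the fits were tested on simulated data. 6 genes with missing H3K27me3 values were left out. CPM are TMM-scaled and not divided by length, so levels are compared between libraries. Named are up to 8 genes with peaks in the most lists and the most shared bases, up to 5 rises and 5 falls per mark past the threshold, up to 4 genes per list and up to 6 per class of marks at P7; other genes were chosen with their values in view. The regions, gene lists and tests were chosen with earlier results of these data known. Settings tried as alternatives were the overlap and the number of lists, input peaks, scaling, filter, tool, subsets of replicates and each library left out.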

Additional observations from a re-analysis of the deposited data

Results flagged for a closer look

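Of 122 groups of 4 or 5 libraries tested among the genes shown, 6 held a library far from the others; chance flags about 1 in 20 groups. H3K27me3 at Adra2a at P12 was 154 CPM in replicate 3, against 70.6 to 75.5 CPM in the other libraries. The same replicate stood above the others at Ppp1r1b at P12, with 122 CPM against 72.3 to 75.5 CPM. At Grin2b, replicate 4 was the high library at both P7 (45.9 CPM against 9.0 to 19.5) and P12 (18 CPM against 8.91 to 10.3). At Grin3a at P7, replicate 3 was low, with 18.2 CPM against 43.4 to 48.0. At Kcnma1 at P21, replicate 4 was low, with 50.6 CPM against 110 to 125.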

How the results depend on the processing

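With 275 regions as the reference, 262 regions had both marks when at least 200 bases had to be shared, 232 with at least 50% of the region and 202 with peaks in 3 lists. Without peaks that overlap any input peak it was 22 (7 with both marks at P7 and 4 at P12), and without peaks that overlap the library's own input 116 (91 and 40). H3K27me3 replicates 1 and 2 alone gave 18 (16 and 7), and 3 lists left 70 with both marks at P12. The H3K4me3 peaks above the median score gave 42 of 1853 H3K4me3 regions (2.27%), against 4.71% in the reference. Leaving out 1 library gave 207 to 1373 regions, 164 to 202 with both marks at P7 and 84 to 191 at P12. The 1373 were of 10087 H3K4me3 regions (13.6%) without P21 H3K4me3 replicate 1, where 1 list then defines H3K4me3. H3K4me3 calls in P12 against P7 numbered 54, 35 with gene starts inside a region, 23 with abundance-dependent scaling, 19 with a replicate block and 3 to 83 with 1 library left out (3 and 11 without P12 replicates 2 and 1, 34 and 83 without P7 replicates 3 and 2). H3K27me3 calls numbered 150, 99 inside a region (fewer sites tested), 149 with the replicate block and 132 to 153 with 1 library left out. In replicates 1 and 2, calls of P21 against P7 numbered 142 and 121 to 145 with 1 library left out. Those of P21 against P12 numbered 43, 27 with abundance-dependent scaling and 19 to 50 with 1 library left out. Deviations of P7 and P12 libraries with the same replicate number correlated at 0.318, 0.196, 0.295 and 0.0735 for H3K27me3, and at 0.0218 and 0.0707 for H3K4me3. Libraries with unlike numbers were not compared, so it was not settled whether replicate numbers pair the libraries.

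Of 78 gene results, 46 were past the threshold, and 25 of these lost the call under at least 1 alternative, 14 of 16 for H3K4me3 and 11 of 30 for H3K27me3. The H3K27me3 difference of P12 from P7 changed sign at Atf3 (0.14 with library totals, 0.033 with abundance-dependent scaling), Grin3a (0.19 with totals), Jag1 (0.59 and 0.85), Tlx3 (0.23 with abundance-dependent scaling) and Efna5 (-0.70 in replicates 1 and 2). The cause was not tested. Low counts, with totals from 264093 at P21, limit what could be called at weakly marked sites.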

Other observations

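Some further genes with both marks at P21 belong to groups not described above. Pcgf5 had H3K27me3 counts of 42.3, 54.0, 72.7, 122 and 70.4 CPM at P7, 70.6, 53.3, 269 and 178 at P12, then 10.5, 34.5, 108, 79.6 and 61.1 at P21. P12 was above P7 past the threshold (log2 difference 0.97, adjusted p = 0.00294 in edgeR), although the libraries overlapped and the call was lost in replicates 1 and 2 alone and in a fit of stage alone. Adamts2, which encodes an enzyme that trims procollagen, went from between 309 and 638 CPM of H3K27me3 at P7 to between 14.5 and 118 at P12, without overlap (log2 difference -3.16 ± 0.28, adjusted p = 1.27e-13).

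Ptpn5, which encodes the striatal-enriched tyrosine phosphatase STEP, had 820, 906, 690, 635 and 745 CPM of H3K27me3 at P7 and 62.6 to 102 CPM at P12 (log2 difference -3.11 ± 0.27, adjusted p = 5.3e-14), and stood at 43.6 to 117 CPM at P21. H3K4me3 at its gene start, which lay outside its region (chr7:47132144-47133396), was low throughout, between 17.2 and 34.2 CPM. Wiz, a zinc finger partner of the G9a and GLP methyltransferases, had H3K27me3 alone at P7 and P12 by its peaks and both marks at P21. Its H3K27me3 fell from between 280 and 536 CPM at P7 to between 61.4 and 197 at P12 (log2 difference -1.91, adjusted p = 1.47e-08) and its H3K4me3 rose from 18.6, 22.9 and 14.1 to 45.8 and 40.4 CPM (adjusted p = 0.0201).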
